A study of Mus musculus with 12 samples.

Results

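Wildtype H2K myogenic progenitors were followed here across the last day of a differentiation series, between myotube maturation at day 3 and mature myotube formation at day 4. H2K cells are a conditionally immortalized mouse muscle progenitor line that grows in γ-interferon and fuses into multinucleated myotubes once serum is withdrawn. RNA sequencing of wildtype and emerin-null H2K cells covered 6 stages (proliferating cells and days 0, 1, 2, 3 and 4), which gives 12 samples. The groups used here were wildtype cells at day 4 and wildtype cells at day 3, with emerin-null cells (which lack emerin, a protein of the inner nuclear membrane) at day 4 and at day 3 set beside them. Every group had spent 24 h in proliferative medium with γ-interferon (20 units/ml) and was then kept in 5% horse serum at 37°C and 5% CO2. RNA of each sample came from 3 culture plates, but the deposited tables hold 1 pooled value per genotype and stage. No spread between plates can therefore be given, and the comparison of day 4 with day 3 has no test. All differences below are descriptions.

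Values were FPKM (fragments mapped to a transcript, scaled to its length and to the mapped fragments of the sample), so the depth of each sample is unknown. The members were the genes with a completed estimate (status OK) in both stage tables and a wildtype FPKM of at least 1 at day 4 or day 3: 11820 of the 15892 gene symbols with such an entry at any stage. Another 1366 genes were estimated at both days and stayed below FPKM 1 in wildtype. Just inside that limit was Nav3, at 0.878 at day 4 and 1.00 at day 3, and just outside it was Cdkl1, at 0.708 and 1.00 (0.9996 before rounding). The step is given as the log2 ratio of day 4 over day 3 with 0.1 FPKM added, after both days were brought to a common scale. The median wildtype ratio before that scaling was 0.963. FPKM values are quoted as deposited, and log2 values after scaling.

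A muscle progenitor that has left the cell cycle switches on MyoD-family and MEF2 transcription factors, fuses, and then fills the new myotube with sarcomeres, calcium-handling membranes and mitochondria. Secretory and biosynthetic capacity, including protein folding in the endoplasmic reticulum, amino acid synthesis and sterol synthesis, is needed for that growth and is controlled by its own transcription factors. Maturation of a myotube is commonly read from the later members of these programs, such as mitochondrial creatine kinase, myotilin and the MRF4 gene Myf6.

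The cells carried the labelled identity by their levels of muscle markers and of Emd. Of 14 skeletal muscle markers 7 could be compared, with a summed wildtype level of 3029.8 FPKM at day 4 and 2021 FPKM at day 3. By the entries read all 7 were above 0 on the log2 scale, which is a change between days and no measure of identity. Only 1 of the 7 had a single entry at the same locus in both tables. With the FPKM of all entries summed, Myod1 was at −0.22 and Myog at −0.08. Emd, the emerin gene, was at 31.8 FPKM at day 4 and 29.6 FPKM at day 3 in wildtype cells, and at 0.0735 FPKM and 0.0421 FPKM in emerin-null cells. Markers of blood, vessel, fat and nerve cells were low. Summed over the lists at day 4 and day 3, macrophage markers were at 19.8 and 15.3 FPKM (4 of 11 genes estimated at both days), endothelial markers at 2.60 and 3.58 FPKM (2 of 10), adipocyte markers at 7.27 and 6.90 FPKM (2 of 10) and neural and glial markers at 7.58 and 6.24 FPKM (5 of 13). The macrophage-defining genes Ptprc, Csf1r and Lyz2 had no completed estimate at either day.

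At least 2-fold higher at day 4 were 985 genes (8.33% of 11820), and 837 genes (7.08%) were at least 2-fold lower. Most of these calls came from genes whose entry was not the same object at both days. Each stage had its own transcript assembly, and a gene may be split into several entries or joined to a neighbour at either stage and not at the other. In 4489 genes each table held 1 entry and the 2 loci overlapped by at least 90%; these are called matched genes below. Of the matched genes 105 (2.34%) were at least 2-fold higher and 82 (1.83%) at least 2-fold lower, but on values as deposited, without scaling, 88 were higher and 100 lower. Among the 7331 other genes 22.3% passed 2-fold in either direction, against 4.17% of the matched genes. In the other genes 12% were higher and 10.3% lower, and over all members 15.4% passed in either direction. Of the 7315 genes with no other gene at their locus 5.65% were higher and 4.94% lower (10.6% in all), and of the 3738 that were also matched 1.71% and 1.42% (3.13% in all). The matched set was defined after values had been seen.

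**Figure D1:**
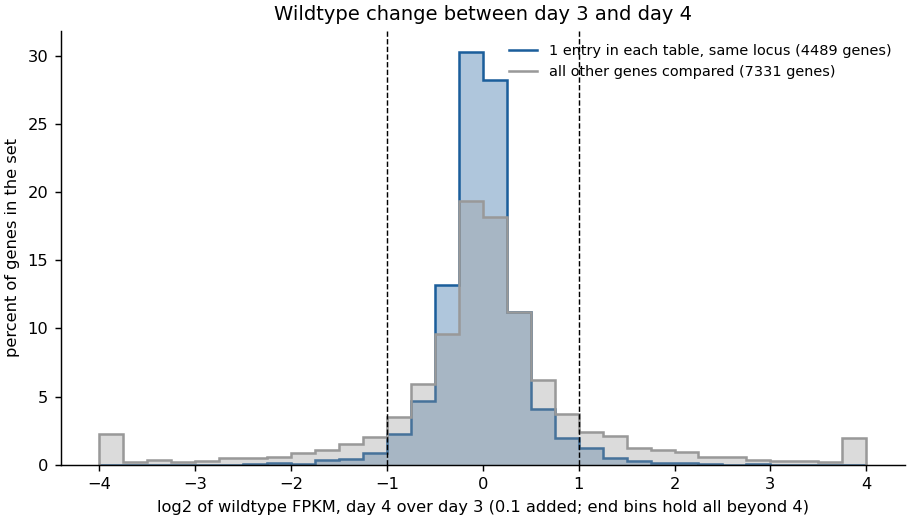
Distribution of the wildtype log2 ratio of day 4 over day 3 (x axis) as the percent of genes per bin (y axis), for the 4489 matched genes (blue) and the 7331 other genes (grey). Dashed lines mark 2-fold. The matched genes lie mostly within 2-fold, and the other genes have wider tails.

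The middle 50% of matched genes had wildtype log2 values between −0.22 and 0.18, with a median of −0.01 and an SD over genes of 0.43. By this measure the last day was among the quieter ones. At least 2-fold in either direction were 3.58% of matched genes between proliferating cells and day 0, 17.6% between day 0 and day 1, 14% between day 1 and day 2, 5.84% between day 2 and day 3 and 4.17% between day 3 and day 4. These steps share stages with each other, so they are given side by side without a test. Emerin-null cells over the same last day had 101 of 4548 matched genes higher (2.22%) and 99 lower (2.18%). Of the 105 matched genes higher in wildtype, 77 were also at least 2-fold higher in emerin-null cells, which is 73.3% of the wildtype genes and 76.2% of the emerin-null genes, against 2.25% of all matched genes. Of the 82 lower in wildtype, 69 were also lower in emerin-null cells (84.1% and 70.4%, against 2.18%). Both genotypes share each table's entry, so an entry that changes between tables moves both genotypes together, and its part in these overlaps was not tested. The wildtype step was at least 1.5-fold below the emerin-null step in 75 matched genes (1.67%) and at least 1.5-fold above it in 45 (1%).

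Around the 2-fold limit the matched genes ran on without a gap. Just inside was Ndrg2, at 99.5 FPKM at day 4 and 51.5 FPKM at day 3 (log2 1.00), and just outside was Ccl8, at 14.6 FPKM at day 4 and 7.62 FPKM at day 3 (0.98). On the lower side Hspa4l was just inside, at 9.37 FPKM at day 4 and 19.6 FPKM at day 3 (−1.002), and Prep just outside, at 23.5 FPKM at day 4 and 48.7 FPKM at day 3 (−0.99).

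Of the 15 matched myogenic factors 8 were above 0 and 7 below, 0 passed 2-fold and the median was 0.02. Mef2c, a MEF2 factor that drives late muscle genes, was at 197 FPKM at day 4 and 136 FPKM at day 3 (log2 0.59), and emerin-null cells were at 206 and 167 FPKM (0.29). Myf6, the MyoD-family member typical of mature fibres, was at 11.03 FPKM at day 4 and 6.87 FPKM at day 3 (0.73), against 15.97 and 11.1 FPKM in emerin-null cells (0.50). Both genes rose with each day between day 1 and day 4, although Myf6 was lower at day 1 than at day 0. Over proliferating cells and days 0 to 4, wildtype Mef2c ran 32.6, 28.8, 46.3, 81.9, 136 and 197 FPKM, and wildtype Myf6 ran 3.86, 3.22, 1.58, 4.58, 6.87 and 11.03 FPKM. Mstn, which encodes myostatin, an inhibitor of muscle growth, went the other way, at 2.04 FPKM at day 4 and 3.78 FPKM at day 3 (−0.80), after 8.54 FPKM at day 2. All 3 genes stayed within 2-fold over the last day.

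The early factors could be read less well, because their entries were not matched. Myod1 was at 81.2 FPKM at day 4 and 56.7 FPKM at day 3 (0.57), but at −0.22 when the FPKM of all its entries were summed. Myog, myogenin, was at 444 FPKM at day 4 and 346 FPKM at day 3 (0.41), but at −0.08 summed. Direction for these genes thus depended on which entry was read. Myf5, expressed in undifferentiated progenitors, was at 2.21 FPKM at day 4 and 2.57 FPKM at day 3 (−0.16), also from an unmatched entry. Pax7, the satellite cell factor, and Mki67, a marker of cycling cells, were below FPKM 1 at both days. Ccnd1, cyclin D1, unmatched too, was at 3.47 FPKM at day 4 and 6.35 FPKM at day 3 (−0.80), against 13.4 and 11.8 FPKM in emerin-null cells (0.17). Cdkn1a, the p21 inhibitor that holds myotubes out of the cycle, unmatched as well, was level, at 509 FPKM at day 4 and 504 FPKM at day 3 (0.07).

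Sarcomere genes could be compared in part. Of 13 matched Z-disc, M-band and titin-scaffold genes 10 were above 0 (47.9% of all matched genes were), with a wildtype median of 0.17 and an emerin-null median of 0.30; 0 passed 2-fold. Xirp2, an actin-binding repeat protein of the Z-disc and intercalated disc, was at 4.11 FPKM at day 4 and 2.27 FPKM at day 3 (0.88). Myot, myotilin, was at 20.1 FPKM at day 4 and 13.3 FPKM at day 3 (0.65), against 39.3 and 19.2 FPKM in emerin-null cells (1.02). Tcap, the telethonin that caps titin, was at 107 FPKM at day 4 and 78.2 FPKM at day 3 (0.50). In contrast, Actn2, the Z-disc α-actinin, was level at 469 FPKM at day 4 and 471 FPKM at day 3 (0.05), and Myoz2, a calsarcin, was lower at 92.1 FPKM at day 4 and 119 FPKM at day 3 (−0.32).

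The thin-filament list gave 6 matched genes, all 6 above 0, with a median of 0.14. Tpm1, α-tropomyosin, passed 2-fold, at 2292 FPKM at day 4 and 962 FPKM at day 3 (1.31), with 3287 and 1129 FPKM in emerin-null cells (1.53). Its earlier course was uneven: 1958 FPKM at day 1 and 783 FPKM at day 2. Tnnt1, slow troponin T, was at 1425 FPKM at day 4 and 1118 FPKM at day 3 (0.40). Neb, nebulin, was level at 147 FPKM at day 4 and 146 FPKM at day 3 (0.06), where emerin-null cells had 86.8 and 109.6 FPKM (−0.35). Of the myosins only Myh7, the slow and cardiac β heavy chain, was matched, at 26.6 FPKM at day 4 and 34.2 FPKM at day 3 (−0.31). Ttn, titin, read from an unmatched entry, was at 29.8 FPKM at day 4 and 30.9 FPKM at day 3 (0.00). Ckm, muscle creatine kinase, also unmatched, was at 379 FPKM at day 4 and 298 FPKM at day 3 (0.40). Myh1, Myh2, Myh3, Myh4, Myh8, Acta1, Actc1, Tnnt3 and H19 had no completed estimate at 1 or both days and were not compared.

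Genes of energy metabolism were more often above 0 than below. Of 23 matched respiratory chain genes 19 were above 0, and the median was 0.18 (emerin-null cells 0.20). Of 19 matched genes of the citric acid cycle and fatty acid oxidation 16 were above 0, with medians of 0.15 and 0.13. Past 2-fold in these lists was Atp5g1, a subunit c gene of ATP synthase, at 22.9 FPKM at day 4 and 11.3 FPKM at day 3 (1.06), although it had been at 39.3 FPKM at day 0. Ndufa5, a complex I subunit, was at 169.5 FPKM at day 4 and 105 FPKM at day 3 (0.75). Ndufv1, also of complex I, was lower, at 144 FPKM at day 4 and 203 FPKM at day 3 (−0.44). Members thus did not move as a block.

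The glycolysis, creatine and muscle fuel list had 8 of 12 matched genes above 0, a median of 0.16 and 2 genes past 2-fold, Ckmt2 and Pdk4. Ckmt2, the mitochondrial creatine kinase of striated muscle, ran 0.954, 4.06, 16.1 and 32.1 FPKM over days 1, 2, 3 and 4 in wildtype cells (last step 1.04), and 0.925, 5.80, 21.3 and 44.2 FPKM in emerin-null cells (1.04). Ppargc1a encodes PGC-1α, the coactivator of mitochondrial biogenesis. It ran 0.531, 0.510, 1.63, 2.50, 3.49 and 6.69 FPKM from proliferating cells to day 4 in wildtype (last step 0.97), against 4.88 FPKM at day 4 and 3.54 FPKM at day 3 in emerin-null cells (0.44). Pdk4, which restrains pyruvate dehydrogenase and so favours fatty acid use, was at 24.5 FPKM at day 4 and 9.30 FPKM at day 3 (1.44), against 33.6 and 13.7 FPKM in emerin-null cells (1.27). Cd36, a fatty acid carrier, was at 14.98 FPKM at day 4 and 10.96 FPKM at day 3 (0.50), and was nearly level in emerin-null cells at 10.7 and 10.2 FPKM (0.05). Ckmt2 and Pdk4 passed 2-fold in both genotypes (Ckmt2 not on values as deposited, at 0.99 in wildtype cells), Ppargc1a was just under it in wildtype cells, and Cd36 was under it in both.

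**Figure D2:**
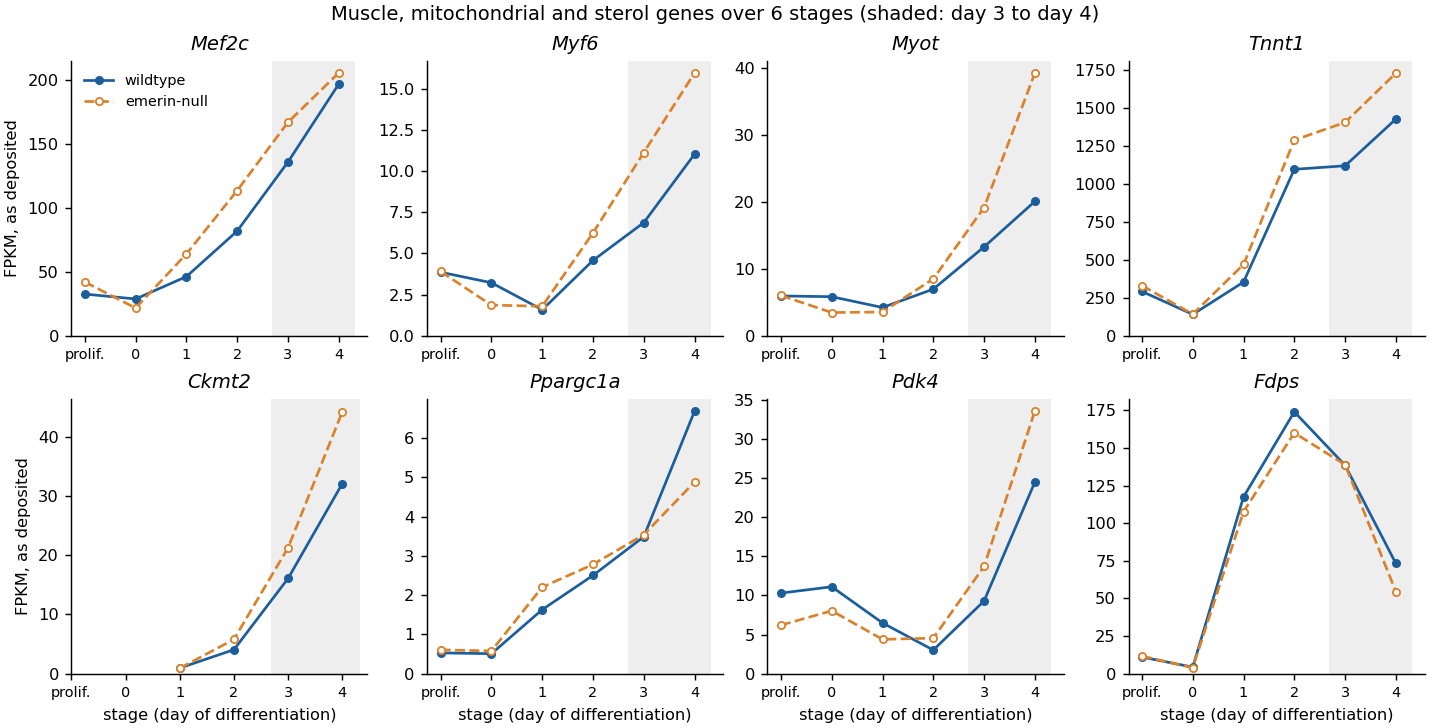
FPKM as deposited (y axis) over the 6 stages (x axis) for 8 genes, wildtype as filled blue points and emerin-null as open orange points; the last day is shaded and each point is 1 pooled value. Mef2c, Myf6, Myot, Tnnt1, Ckmt2 and Ppargc1a are highest at day 4, Pdk4 passes its earlier levels at day 4, and Fdps peaks at day 2 (wildtype 174 FPKM) and is at 73.3 FPKM at day 4.

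Membrane and calcium genes were mixed. Of 12 matched excitation and calcium-handling genes 6 were above 0, and the median was −0.01. The gene past 2-fold was Cacnb1, the β subunit of the voltage-sensing calcium channel, lower in wildtype (−1.74) and in emerin-null cells (−2.00). The Cacnb1 entry shares its locus with another gene, so its value may not be that of Cacnb1 alone. Ryr1, the calcium release channel, was at 73.3 FPKM at day 4 and 63.2 FPKM at day 3 (0.27). Kcnj12, an inward-rectifier potassium channel, was at 16.8 FPKM at day 4 and 13.1 FPKM at day 3 (0.42), and Scn4a, the muscle sodium channel, at 12.9 FPKM at day 4 and 10.7 FPKM at day 3 (0.32). In wildtype cells these 3 channels were higher at each day than at the day before, from day 0 to day 4. Stac3, needed for coupling of voltage sensor and release channel, was lower, at 44.3 FPKM at day 4 and 83.8 FPKM at day 3 (−0.86), having alternated over the stages in both genotypes.

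The 13 matched genes known from atrophying muscle stayed within 2-fold, with 8 above 0 and a median of 0.07. Over all 24 such genes compared, 1 was at least 2-fold higher (8.33% of all members were) and 2 at least 2-fold lower (7.08%). The lower ones included Bnip3, from an unmatched entry (−2.00, emerin-null −2.02). Fbxo32, the atrogin-1 ubiquitin ligase, was at 10.0 FPKM at day 4 and 6.53 FPKM at day 3 (0.66), against 8.64 and 7.14 FPKM in emerin-null cells (0.26). Trim63, the MuRF1 ligase, was at 30.0 FPKM at day 4 and 26.2 FPKM at day 3 (0.25). The 2 ligases thus pointed the same way, by less than 2-fold.

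Of the 44 lists with at least 5 matched genes, the lowest medians belonged to amino acid supply and to protein folding in the endoplasmic reticulum. Of 23 matched genes of the amino acid response and the tRNA synthetases 22 were lower at day 4, against 52.1% of all matched genes, with a median log2 of −0.52. In emerin-null cells 18 of the 23 were lower (51.2% of all matched genes), with a median of −0.15. The wildtype step was below the emerin-null step in 20 of 23 genes (47.4% of all matched genes), by a median of 0.30 log2. Past 2-fold were 2 entries, Ddit3 and Mars, which share 1 joined locus and 1 value, so they count as 1 measurement: 12.8 FPKM at day 4 and 33.5 FPKM at day 3 (−1.33), against 16.8 and 35.8 FPKM in emerin-null cells (−1.10). The remaining matched genes moved by less than 2-fold each. Over all 33 genes of the list compared, 4 were at least 2-fold lower (7.08% of all members were) and 0 higher (8.33%). Phgdh, of serine synthesis, read from an unmatched entry, was lower in both genotypes. It was at 30.3 FPKM at day 4 and 151 FPKM at day 3 (−2.26), against 43.0 and 148 FPKM in emerin-null cells (−1.80).

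Many of these genes answer to ATF4, the transcription factor that is translated when amino acids run short or when proteins misfold. Asns, asparagine synthetase, was at 38.3 FPKM at day 4 and 55.0 FPKM at day 3 in wildtype cells (−0.47), and level in emerin-null cells at 76.5 and 77.5 FPKM (−0.03). Trib3, a pseudokinase that feeds back on ATF4, was at 2.37 FPKM at day 4 and 4.45 FPKM at day 3 (−0.83), against 10.84 and 10.97 FPKM in emerin-null cells (−0.03). Chac1, an enzyme that degrades glutathione, was at 7.31 FPKM at day 4 and 10.97 FPKM at day 3 (−0.52), against 14.03 and 11.98 FPKM in emerin-null cells (0.21). For all 3 genes the wildtype value was lower at day 4 than at day 3, while the emerin-null value was level or higher. These 3 were picked after their values were seen. Of the 23 matched list genes, 18 were lower in emerin-null cells too.

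Enzymes of serine, folate and cysteine metabolism in the list were lower in wildtype cells too. Psat1, of serine synthesis, was at 85.5 FPKM at day 4 and 134 FPKM at day 3 (−0.60), against 129 and 157 FPKM in emerin-null cells (−0.30). Mthfd2, of mitochondrial folate metabolism, was at 20.7 FPKM at day 4 and 31.1 FPKM at day 3 (−0.53), against 40.6 and 41.9 FPKM (−0.06). Cth, which makes cysteine from cystathionine, was at 1.13 FPKM at day 4 and 2.20 FPKM at day 3 (−0.85), against 2.61 and 2.70 FPKM (−0.06). The emerin-null steps of Mthfd2 and Cth were close to 0. Gdf15, a secreted stress cytokine, was at 1.31 FPKM at day 4 and 2.40 FPKM at day 3 (−0.78), against 9.39 and 7.77 FPKM in emerin-null cells (0.26). Pck2, the mitochondrial phosphoenolpyruvate carboxykinase, is also known as an ATF4 target but was not in the list, and was picked after its values were seen: 4.83 FPKM at day 4 and 7.58 FPKM at day 3 (−0.59), against 18.9 and 14.3 FPKM (0.38). Atf4 itself, whose entry shares its locus with another gene, was at 29.9 FPKM at day 4 and 35.4 FPKM at day 3 (−0.19), against 40.2 and 44.1 FPKM (−0.15). Among the tRNA synthetases Aars was lower (50.6 FPKM at day 4, 78.3 FPKM at day 3, −0.58), and Gars was the exception of the list (166 FPKM at day 4, 146 FPKM at day 3, 0.24).

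**Figure D3:**
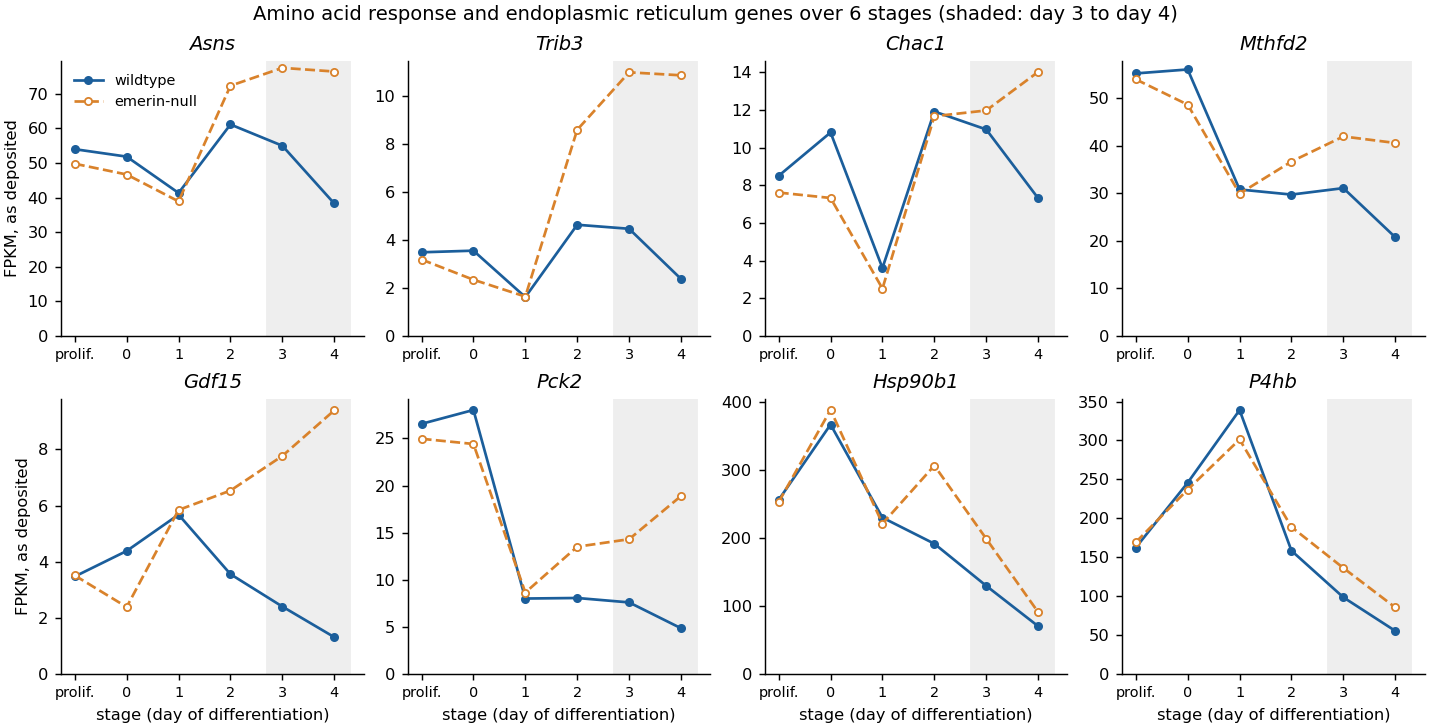
FPKM as deposited (y axis) over the 6 stages (x axis) for 6 genes of the ATF4 program and the endoplasmic reticulum genes Hsp90b1 and P4hb, wildtype as filled blue points and emerin-null as open orange points, with the last day shaded and 1 pooled value per point. Wildtype values are lower at day 4 than at day 3 in all 8 panels. The emerin-null values of Asns, Trib3 and Mthfd2 are nearly level, and those of Chac1, Gdf15 and Pck2 are higher. Those of Hsp90b1 and P4hb are lower. All 8 genes were picked after their values were seen. In the amino acid list, 18 of 23 matched genes were lower in emerin-null cells.

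The start sites of some of these genes are shown because ATF4, the known factor of this response, binds a short element. Whether the element played a part in the step was not tested. Promoter windows (250 bases before to 50 after the start site) came from RefSeq on GRCm38.p6, which held a window for 8330 of the 11820 members. The amino acid response element was searched as TGATGNAA on both strands, a motif added after the values were seen. It was found in 7 of the 18 matched list genes with a window (38.9%), against 2.61% of 3223 matched genes and 4.51% of all 27025 genes in the promoter table. The 7 were Aars, Asns, Chac1, Gars, Slc1a4, Tars and Trib3. Gars, the gene that was not lower, also held it. The list was made of genes of this response, so a larger share of its element was built in and tests nothing. Among matched genes with a window, 4 of 54 that were at least 2-fold lower held the element (7.41%). Of those at least 2-fold higher, 0 of 74 did. The match is a description of letters in these windows. Capitals mark the match, which is on the strand shown in Asns and on the opposite strand in Chac1 and Trib3. The windows lie at chr6:7693160-7693459 (minus strand) for Asns, chr2:119350992-119351291 (plus strand) for Chac1 and chr2:152344011-152344310 (minus strand) for Trib3.
Asns: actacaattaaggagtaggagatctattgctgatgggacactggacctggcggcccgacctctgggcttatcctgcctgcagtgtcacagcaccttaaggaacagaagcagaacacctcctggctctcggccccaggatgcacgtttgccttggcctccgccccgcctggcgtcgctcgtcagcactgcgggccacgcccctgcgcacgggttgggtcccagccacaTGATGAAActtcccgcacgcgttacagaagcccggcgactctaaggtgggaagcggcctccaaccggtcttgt
Chac1: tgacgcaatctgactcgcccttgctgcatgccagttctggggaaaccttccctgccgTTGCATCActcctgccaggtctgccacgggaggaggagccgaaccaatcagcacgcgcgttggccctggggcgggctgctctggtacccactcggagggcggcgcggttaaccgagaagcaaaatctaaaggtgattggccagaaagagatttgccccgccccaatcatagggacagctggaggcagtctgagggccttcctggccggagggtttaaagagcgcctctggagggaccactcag
Trib3: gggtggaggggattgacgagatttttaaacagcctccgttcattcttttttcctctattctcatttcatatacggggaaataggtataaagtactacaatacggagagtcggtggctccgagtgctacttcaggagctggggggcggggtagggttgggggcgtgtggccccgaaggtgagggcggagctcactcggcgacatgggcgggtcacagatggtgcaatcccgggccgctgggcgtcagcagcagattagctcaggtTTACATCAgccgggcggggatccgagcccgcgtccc

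Folding genes of the endoplasmic reticulum were mostly lower as well. Of 15 matched genes of the endoplasmic reticulum stress list 14 were lower at day 4, with a median of −0.52; 1 passed 2-fold upward and 1 downward. This list shares Ddit3, Trib3 and Chac1 with the amino acid list, and Chac1 is the median gene of both. Hsp90b1, the reticulum Hsp90 chaperone, was at 70.0 FPKM at day 4 and 129 FPKM at day 3 (−0.83), against 90.7 and 199 FPKM in emerin-null cells (−1.15). P4hb, a protein disulfide isomerase, was at 55.1 FPKM at day 4 and 98.2 FPKM at day 3 (−0.78), against 85.2 and 136 FPKM (−0.69). Pdia4, a related isomerase, was at 16.9 FPKM at day 4 and 29.1 FPKM at day 3 (−0.73), against 39.3 and 61.0 FPKM (−0.65). In emerin-null cells 11 of the 15 genes were lower, with a median of −0.21. Gene by gene the wildtype step was the lower in 10 of 15, with a median difference of −0.08, against −0.30 for the amino acid list. The exception was Canx, calnexin, whose entry shares its locus and its value with Maml1, at 78.1 FPKM at day 4 and 31.2 FPKM at day 3 (1.38).

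The endoplasmic reticulum stress response element, searched as CCAAT, any 9 bases and then CCACG, is bound by NF-Y together with ATF6. It was found on either strand in the windows of 4 of 15 matched list genes (Calr, Canx, Creld2 and Hsp90b1), against 0.217% of 3223 matched genes and 0.137% of all genes in the table. This motif too was added after values were seen, and its CCAAT end overlaps the CCAAT box. The list was made of genes of the same response, so its larger share was built in as well. Among matched genes with a window, 0 of 54 that were at least 2-fold lower held the element, and 1 of 74 that were higher (1.35%). Hsp90b1, with a match on each strand (chr10:86705395-86705694, minus strand), and Creld2, with a match on the strand opposite to the letters shown (chr15:88819396-88819695, plus strand), are printed to show the spacing. Creld2, a reticulum chaperone, was at 15.4 FPKM at day 4 and 20.1 FPKM at day 3 (−0.33). Calnexin, higher at day 4, held the element as well.
Hsp90b1: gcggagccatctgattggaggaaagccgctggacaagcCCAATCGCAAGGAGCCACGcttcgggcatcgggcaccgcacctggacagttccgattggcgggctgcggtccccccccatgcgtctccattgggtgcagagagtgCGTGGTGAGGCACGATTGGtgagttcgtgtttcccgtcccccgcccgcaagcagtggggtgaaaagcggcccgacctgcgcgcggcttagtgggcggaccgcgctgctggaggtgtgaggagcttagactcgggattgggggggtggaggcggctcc
Creld2: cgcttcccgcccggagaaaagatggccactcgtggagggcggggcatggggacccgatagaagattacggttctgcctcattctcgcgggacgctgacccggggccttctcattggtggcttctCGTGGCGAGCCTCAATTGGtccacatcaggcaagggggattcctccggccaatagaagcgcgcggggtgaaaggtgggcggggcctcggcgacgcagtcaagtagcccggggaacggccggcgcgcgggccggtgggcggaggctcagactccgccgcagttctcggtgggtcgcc

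**Figure D4:**
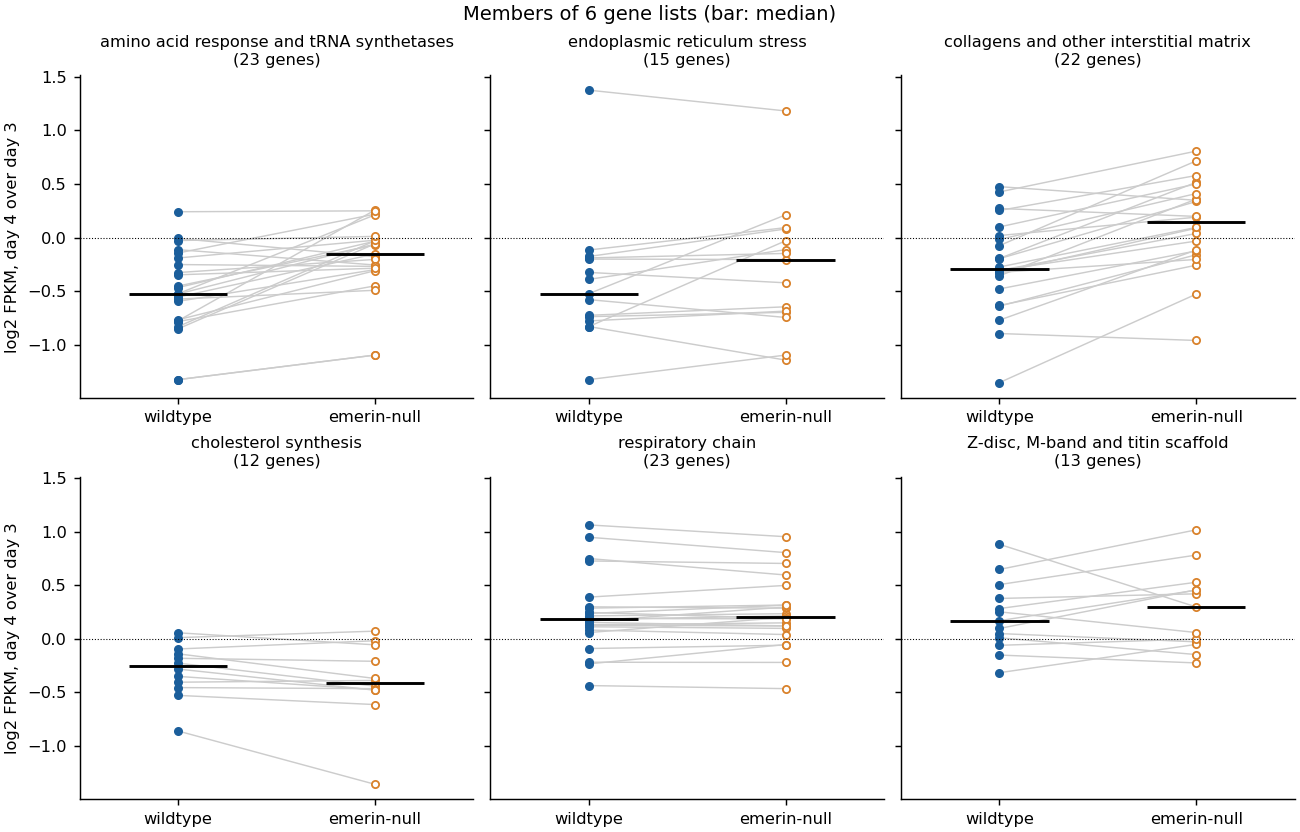
Log2 ratio of day 4 over day 3 (y axis) for the matched members of 6 gene lists, wildtype left and emerin-null right in each panel, with a line per gene and a bar at the median. In the amino acid list the wildtype median is −0.52 and the emerin-null median −0.15, in the matrix list −0.29 and 0.14, and in the respiratory chain 0.18 and 0.20.

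Sterol synthesis genes were mostly lower in both genotypes. Of 12 matched genes 10 were below 0, the wildtype median was −0.26, the emerin-null median was −0.42, and 0 passed 2-fold in wildtype. Fdps, which makes farnesyl diphosphate, was at 73.3 FPKM at day 4 and 138 FPKM at day 3 (−0.86), against 54.6 and 139 FPKM in emerin-null cells (−1.36). Srebf2, which encodes the factor that drives these genes, was level at 33.8 FPKM at day 4 and 34.9 FPKM at day 3 (0.01). Fdps had been highest at day 2, at 174 FPKM.

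Matrix genes were mostly lower in wildtype cells and mostly higher in emerin-null cells, a difference that has no test. Of 22 matched collagens and other interstitial matrix genes 16 were lower at day 4 in wildtype cells (median −0.29) and 8 in emerin-null cells (median 0.14), and the wildtype step was the lower of the pair in 19 of 22, by a median of 0.38 log2. Fbln5, an elastic fibre protein, was the gene past 2-fold, though not with a pseudocount of 1 (−0.86), at 0.863 FPKM at day 4 and 2.45 FPKM at day 3 (−1.36), against 2.75 and 3.98 FPKM in emerin-null cells (−0.53). Col1a1, of type I collagen, was at 7.61 FPKM at day 4 and 12.4 FPKM at day 3 (−0.64), against 51.4 and 57.0 FPKM (−0.16). Fn1, fibronectin, was at 29.5 FPKM at day 4 and 39.3 FPKM at day 3 (−0.36), but higher in emerin-null cells at 55.6 and 42.9 FPKM (0.36). Fbln2, fibulin-2, was nearly level at 8.60 FPKM at day 4 and 9.41 FPKM at day 3 (−0.08), against 18.2 and 10.9 FPKM (0.72). Col3a1, of type III collagen, was at 53.1 FPKM at day 4 and 69.2 FPKM at day 3 (−0.33), against 108 and 101 FPKM (0.09). The crosslinking enzyme Loxl1 was higher in both, at 29.7 FPKM at day 4 and 22.2 FPKM at day 3 (0.48) in wildtype cells and 56.2 and 43.7 FPKM in emerin-null cells (0.35).

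Fibroblast markers, several of which are matrix genes themselves, had 4 of 6 compared genes below 0 in wildtype cells (median −0.34, emerin-null 0.09). Summed over the 8 of 13 with estimates at both days they were at 421 FPKM at day 4 and 446 FPKM at day 3 in wildtype cells, and at 671 and 596 FPKM in emerin-null cells, and most of each sum was S100a4. Pdgfra and Fap, which define fibroblasts, were below FPKM 1 at both days in wildtype. Smooth muscle and pericyte markers were at 999 FPKM at day 4 and 1606 FPKM at day 3 in wildtype, mostly Acta2, an actin that early myotubes also express, at 871 FPKM at day 4 and 1511 FPKM at day 3 (−0.74). The part of these cells in the matrix values was not tested, and in bulk RNA fewer cells of a type and less RNA per cell cannot be told apart.

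Interferon-stimulated genes were mostly lower in wildtype cells as well. In both genotypes γ-interferon had been withdrawn with the proliferative medium after day 0, and its part in this step was not tested. Of 16 matched genes 14 were below 0 (median −0.24), against 5 in emerin-null cells (median 0.11), and the wildtype step was the lower in 15 of 16. Oasl2, an antiviral 2′-5′ oligoadenylate synthetase relative, was at 3.39 FPKM at day 4 and 6.07 FPKM at day 3 (−0.77), against 6.62 and 7.83 FPKM in emerin-null cells (−0.25). Bst2, tetherin, was at 143 FPKM at day 4 and 194 FPKM at day 3 (−0.38), against 182 and 161 FPKM (0.16). Only Ifi202b passed 2-fold among the matched genes in wildtype cells, at 18.5 FPKM at day 4 and 46.0 FPKM at day 3 (−1.26). In emerin-null cells it was at 11.1 FPKM at day 4 and 0.0476 FPKM at day 3. Ifi202b lies in a cluster of closely similar genes (chr1:173962568-173982744, minus strand), so its values are uncertain. In the list of chemokines, cytokines and complement 8 of 12 matched genes were above 0 and 1 passed 2-fold, with a median of 0.24. Over all 20 genes compared the median was 0.12, and over those alone at their locus 0.02. Ccl8 was at 14.6 FPKM at day 4 and 7.62 FPKM at day 3 (0.98), and Cxcl10, the gene past 2-fold, at 3.31 FPKM at day 4 and 1.58 FPKM at day 3 (1.08). The Cxcl10 entry shares its locus with another gene.

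The p53 target and apoptosis list had 14 of 20 matched genes below 0, and its median was −0.33, against 0.02 over emerin-null values. Ccng1, cyclin G1, passed 2-fold in both genotypes, at 216 FPKM at day 4 and 463 FPKM at day 3 in wildtype (−1.04) and 212 and 452 FPKM in emerin-null cells (−1.11). Fas, the death receptor, was at 7.71 FPKM at day 4 and 10.3 FPKM at day 3 (−0.36), against 5.69 and 5.17 FPKM (0.12). Ccng1 was lower in both genotypes and Fas in wildtype cells alone by its values, a difference that has no test.

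Imprinted growth genes were mostly lower in both genotypes. Of 7 matched genes 6 were below 0, with medians of −0.25 in wildtype and −0.27 in emerin-null cells. Over the imprinted genes alone at their locus the wildtype median was −0.58. Igf2, the embryonic growth factor, was at 634 FPKM at day 4 and 986 FPKM at day 3 (−0.58), against 806 and 1137 FPKM in emerin-null cells (−0.51). Grb10, an adaptor that dampens insulin receptor signaling, was at 1.14 FPKM at day 4 and 2.25 FPKM at day 3 (−0.87), against 6.12 and 8.88 FPKM (−0.54). Cdkn1c, the p57 inhibitor, from an unmatched entry, was at 24.1 FPKM at day 4 and 57.2 FPKM at day 3 (−1.19), against 152 and 374 FPKM (−1.32). The 3 genes were lower in wildtype and in emerin-null cells alike.

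**Figure D5:**
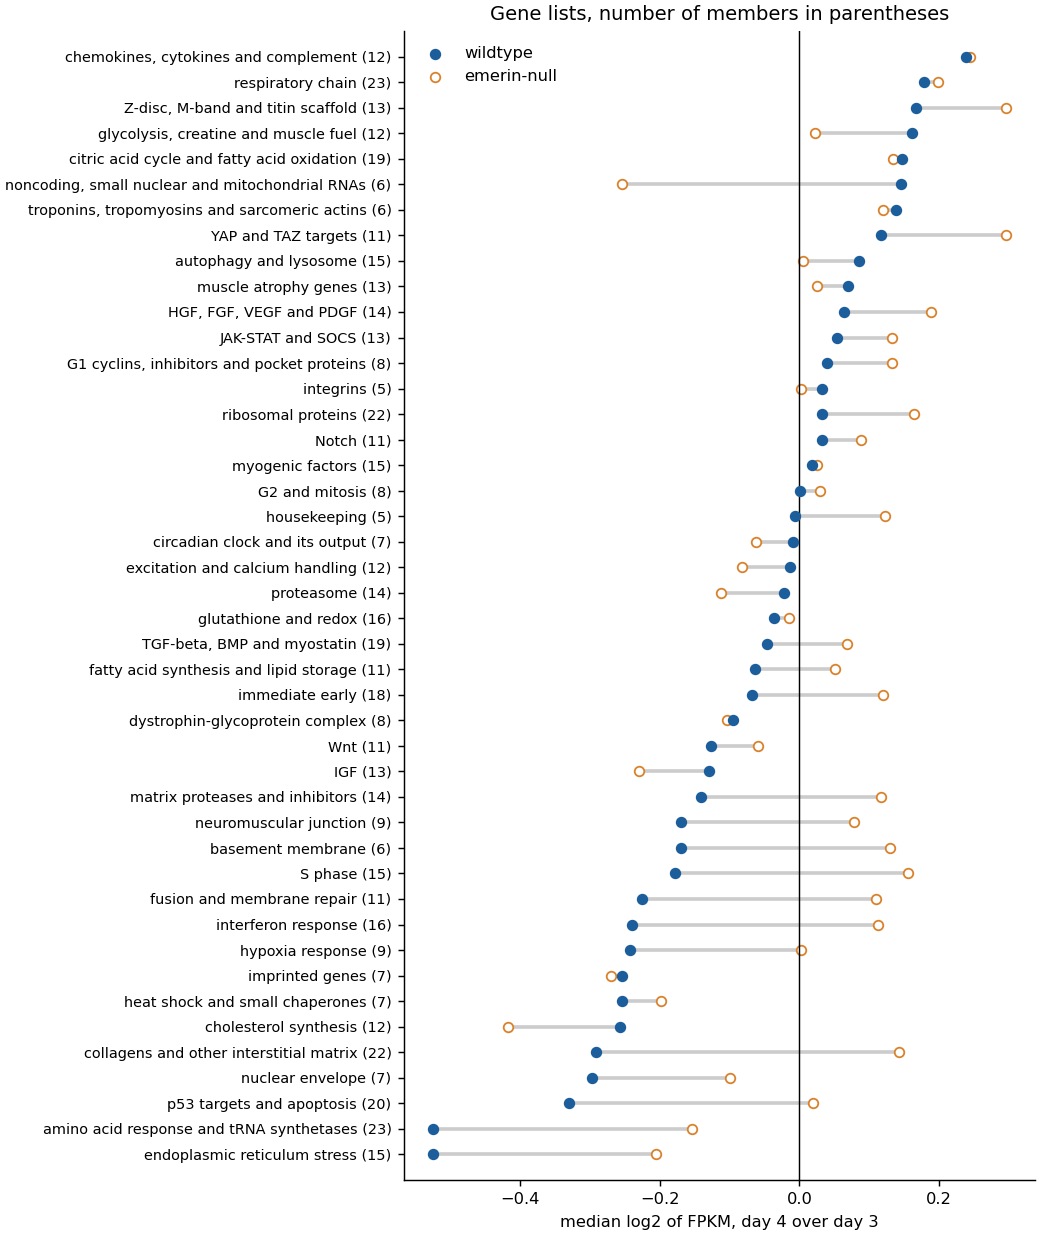
Median log2 ratio of day 4 over day 3 (x axis) for the 44 gene lists with at least 5 matched members (y axis, number of members in parentheses), wildtype as filled blue points and emerin-null as open orange points, joined by a grey line. In wildtype cells 11 lists are at −0.2 or below (among them the nuclear envelope, at −0.30 here and 0.15 over all its members), 1 list is at 0.2 or above and 32 lie between; the amino acid and endoplasmic reticulum lists are lowest.

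Several further genes are given with their course into day 4, most of them picked after their values were seen. Syngr1, a synaptogyrin of small vesicles, ran 0.575, 3.21, 15.9 and 34.3 FPKM over days 1, 2, 3 and 4 in wildtype cells (last step 1.16), and 0.582, 3.05, 18.5 and 37.8 FPKM in emerin-null cells (1.01). Pacsin1, a membrane-bending protein, ran 1.59, 2.74, 5.33 and 11.3 FPKM over the same days (1.12), against 6.91 FPKM at day 4 and 4.20 FPKM at day 3 in emerin-null cells (0.69). Fxyd6, a regulator of the sodium pump, was at 58.6 FPKM at day 4 and 31.0 FPKM at day 3 (0.97), against 78.1 and 34.97 FPKM (1.14). Trp63, the p63 gene, was at 21.8 FPKM at day 4 and 5.29 FPKM at day 3 (2.07), after 6.03 FPKM at day 2, against 19.1 and 4.03 FPKM (2.20). In the other direction Olfml2b, a matrix-binding olfactomedin protein, ran 51.8, 25.2, 7.70 and 3.61 FPKM over days 1, 2, 3 and 4 in wildtype cells (last step −1.02), against 8.80 FPKM at day 4 and 9.88 FPKM at day 3 in emerin-null cells (−0.18). Actb, the cytoplasmic β-actin of undifferentiated cells, ran 1869, 1864, 738, 265, 129 and 113 FPKM over the 6 stages in wildtype cells (last step −0.13), against 237 FPKM at day 4 and 196 FPKM at day 3 in emerin-null cells (0.26). E2f1, a factor of S-phase entry, was higher in both genotypes, at 14.8 FPKM at day 4 and 6.58 FPKM at day 3 in wildtype cells (1.22) and 10.1 and 4.95 FPKM in emerin-null cells (0.995). Lmnb1, lamin B1 of the nuclear lamina, was at 2.15 FPKM at day 4 and 3.57 FPKM at day 3 (−0.66), against 6.73 and 6.25 FPKM (0.09).

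Some matched genes that passed 2-fold had gone up and down between earlier stages. Cct3, of the TRiC chaperonin, was at 159, 207, 104, 195, 83.6 and 226 FPKM from proliferating cells to day 4 in wildtype (last step 1.49), and the emerin-null step was also 1.49. Junb, an AP-1 factor, was at 19.8, 40.8, 13.3, 3.91, 24.7 and 7.02 FPKM over the 6 stages (last step −1.75, emerin-null −1.51). Sntb1, β1-syntrophin of the dystrophin complex, was at 27.1, 19.2, 62.4, 27.2, 57.5 and 22.2 FPKM (−1.32, emerin-null −1.35). Errfi1, a feedback inhibitor of EGF receptor signaling, was at 18.0, 71.0, 34.2, 7.21, 11.5 and 2.11 FPKM (−2.34, emerin-null −2.01). The last step of each of these genes went against the step before it, although Errfi1 had also fallen from day 0 to day 2. The largest matched increases were Hbxip, at 63.1 FPKM at day 4 and 9.37 FPKM at day 3 (2.79), 2410137F16Rik (2.77) and Asb10 (2.49). Asb10 was not among the matched genes alone at their locus with an FPKM of at least 5. The largest matched decreases were Errfi1, Tmem41b (−2.15) and Mgmt (−2.11).

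The most extreme ratios of all members came from entries that were not matched. The 12 largest increases and 12 largest decreases among genes alone at their locus included 0 matched genes, 23 of the 24 had several entries in a table, and 23 exceeded 1000 FPKM at the higher day. Itga3, an integrin subunit, was listed at 25800900 FPKM at day 4 and 6.16 FPKM at day 3, and Osbp2, an oxysterol-binding protein, at 0.43 FPKM at day 4 and 4818290 FPKM at day 3. The other increases were Trpm7, Epb4.1, Rsph3b, Slc25a16, Sgcd, Ttc28, Lamp3, Mnat1, Ubxn11, Fam5c and Scn3a, and the other decreases Rbbp8, Pcsk6, Nrg1, Adam25, Fmn1, Ank2, Pdgfrl, Itfg3, Tex16, Kif3b and Fhit. Over all members, 83.5% of the genes higher in wildtype passed 2-fold the same way in emerin-null cells, as did 84.3% of those lower. Of 69 genes named from the lists for passing 2-fold by both measures, 12 were matched and 55 passed 2-fold in the same direction in emerin-null cells. Among the unmatched ones were Pgk1, a glycolytic enzyme, at 13.6 FPKM at day 4 and 225 FPKM at day 3 (−3.98, emerin-null −3.71), and Myl1, a fast myosin light chain, at 274 FPKM at day 4 and 2942 FPKM at day 3 (−3.37, emerin-null −0.07).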

How the data were processed

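Wildtype and emerin-null H2K cells were sequenced at 6 stages on an Illumina HiScan-SQ. Per the labels and the study's methods, the authors used FastQC, TopHat and Cuffdiff with mm10 (no tool version was found in the labels or methods) and deposited 1 table of FPKM values per stage, with 1 value per genotype. Depth and replicate spread cannot be read from these tables, and each table was normalized separately. The authors' fold changes, p-values and q-values stand in the same tables and were not used.

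For each gene the entry of status OK with the largest FPKM summed over both genotypes was taken, an FPKM of at least 1 at day 4 or day 3 in wildtype was required, both days were scaled by the median ratio over shared genes, and the log2 ratio was taken with a pseudocount of 0.1 FPKM. Genes past 2-fold were counted without a test, since each genotype and stage has 1 value. The scripts were tested on simulated data. Named genes were the 12 largest increases and 12 largest decreases among genes alone at their locus with an FPKM of at least 5 and 2-fold also when entries were summed, up to 4 genes from each of 57 lists that passed 2-fold by both measures, and a set that was always reported. Genes described beyond that rule were chosen after their values were seen, as were the matched genes and the response-element motifs. Members and lists were chosen with earlier results of these data known. Coordinates came from GENCODE M21 and promoter windows from RefSeq (GRCm38.p6, the assembly of mm10). Alternatives covered the pseudocount, scaling, FPKM filter, choice of entry, locus overlap and fold threshold. Python 3.11.15, pandas 2.3.3, numpy 2.4.6 and matplotlib 3.10.9 were used. Some members of the lists are not reported here.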

Additional observations from a re-analysis of the deposited data

Results flagged for a closer look

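In 10 of the genes examined, the wildtype step between day 3 and day 4 and the emerin-null step were each at least 2-fold and pointed in opposite directions. The differences below are the wildtype log2 step minus the emerin-null log2 step, and none of them was tested, because each genotype and stage has 1 value.

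Only Ifi202b was a matched gene, at −7.50, and it was chosen after its values were seen, while the other 9 were named by the rule. Wildtype cells had 18.5 FPKM at day 4 and 46.0 FPKM at day 3, and emerin-null cells 11.1 and 0.0476 FPKM. Sox6, a transcription factor that represses slow-fibre genes, differed by −3.85. It was at 1.83 FPKM at day 4 and 6.76 FPKM at day 3 in wildtype cells, against 1.46 and 0.266 FPKM in emerin-null cells.

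In the other 8 genes an emerin-null value was listed at 0 and the wildtype value of the same day was between 9991 and 25800900 FPKM. Their differences depend on the pseudocount and are no measure of a fold. They were 28.98 for Itga3, 21.98 for Trpm7, −25.85 for Osbp2, −20.66 for Pcsk6, −20.59 for Rbbp8, −17.91 for Kif3b, −17.18 for Fmn1 and −16.43 for Nrg1. Itga3 and Trpm7 were listed at 0 in emerin-null cells at day 4, and the other 6 at day 3.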

How the results depend on the processing

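The counts of genes past 2-fold depended mainly on which entries were read. With entries at the same locus in both tables, 305 genes were higher and 251 lower, and 69 named genes passed 2-fold. Among genes alone at their locus 413 were higher and 361 lower (matched genes: 64 and 53). With 1 entry in each table at the same locus, a choice made after seeing the data, 105 were higher and 82 lower, and 45 named genes passed. At 1.5-fold the counts were 1725 and 1557 (matched 305 and 298), and at 3-fold 534 and 484 (matched 22 and 22). The Notch list had a median of −0.23 over all its members and 0.032 over its matched members. The nuclear envelope list moved likewise to −0.30 over matched members, against 0.15 over all, and the fusion list to −0.22, against 0.01. With an FPKM of at least 5 required, the fusion list was at 0.23. The chemokine list was then at 0.41, against 0.12. For the genes alone at their locus the imprinted list had −0.58, against −0.28. Of the named genes, Fbln5 (−0.86) and Olfml2b (−0.87) were under 2-fold with a pseudocount of 1, Ckmt2 (0.99) on values as deposited, and Ndrg2 (0.95 to 0.99) under both and with upper-quartile scaling. The other 46 counts were within 1.5 times their value as reported. The amino acid list median stayed between −0.52 and −0.35, the endoplasmic reticulum list between −0.52 and −0.43, the matrix list between −0.29 and −0.19 and the interferon list between −0.25 and −0.18.

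No paired analysis was possible because each genotype and stage has 1 pooled value, and for the same reason no replicate was left out. The depth is unknown, so no precision can be given for low values such as those of Trib3, Cth and Gdf15. Differences of the size seen in most lists cannot be set against any replicate error.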
